A study of Mus musculus with 30 samples.

Results

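The 30 genes described here encode the enzymes and regulators of cholesterol and fatty acid synthesis, followed through the cell cycle of growing C2C12 myoblasts. They were taken by their symbols, 18 enzymes from the condensation of acetyl-CoA to cholesterol, 6 genes of sterol sensing and transport and 6 of fatty acid synthesis, and all 30 are among the 46078 genes of the count table. C2C12 is an established mouse line of muscle precursor cells. All cells were growing, in DMEM with 20% fetal bovine serum. A Hoechst stain of DNA, applied for 15 min, let a cell sorter part them into the G1, S and G2/M fractions. No fraction had a genetic change or a drug treatment in the labels. RNA-seq gave 6 of the 30 samples, 2 per fraction, and the other 24 are ChIP-seq samples, not analysed here.

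Cholesterol is built from acetyl-CoA through mevalonate, farnesyl diphosphate, squalene and lanosterol. The pathway is controlled by the SREBP transcription factors, which sit in the endoplasmic reticulum with the escort protein SCAP. When sterol is plentiful, INSIG proteins hold SCAP there, and when it is scarce SCAP carries SREBP to the Golgi, where proteases release the active factor. Fatty acid synthesis starts from the same acetyl-CoA and is switched on by the same family of factors, and a dividing cell draws on both pathways for new membrane.

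The 6 columns had 16109055 to 18103769 gene fragments. The titles call the 2 columns of each fraction replicates, and the labels do not say whether these were separate cultures. The column names carry L1 and L2, which could be lanes, and the labels do not explain them. The 2 columns of a fraction differed about as much as sampling of fragments alone gives, with chi-square over its degrees of freedom of 1.00 in G1, 1.03 in S, then 1.15 in G2/M, so they were summed and counted as 1 library per fraction. With 1 library per fraction no difference below has a replicate check. The 95% intervals cover counting error only, which is less than the spread between the G2/M columns, and PCR copies are not independent molecules. Levels are given in CPM, which scale a gene's fragments to a fixed library total after TMM normalization, and are shares of a library's RNA. RNA per cell was not measured, so a smaller share and fewer molecules per cell cannot be told apart, nor can fewer cells of a kind and less RNA in each. The titles of the S samples carry a lot mark that the others lack, and wherever S is compared, phase cannot be told apart from lot. The fractions carried different cell cycle RNAs. All 6 G1/S genes checked were at least 2-fold lower in S and in G2/M than in G1. Their summed level was 1218 CPM in G1, 432.9 in S, then 418.0 in G2/M, so this sum hardly parts S from G2/M. The summed level of 6 mitotic genes was 319.3 CPM in G1, 897.2 in S, then 1643 in G2/M. Of 7 myoblast markers 6 reached 10 CPM. Myf5 stood at 66.0, 126.1 and 127.9 CPM in G1, S and G2/M and Des at 311.5, 213.5 and 285.1. Cdh15, Itga7, Cdh2 and Vim differed less than 1.5-fold, and Myod1 stood at 5.73 to 6.64 CPM. Of 8 adipocyte markers 5 had no fragment in any library (Cebpa, Adipoq, Plin1, Cd36 and Lep), and the summed level of all 8, mostly of Pparg, was 50.1 CPM in G1, 19.6 in S, then 28.9 in G2/M. The part of such cells in the values below was not tested. Hepatocyte, endothelial and blood markers summed to at most 5.55 CPM each in any library. Krt14, a keratin, stood at 232.6 to 325.6 CPM, whereas its usual partner Krt5 had no fragment.

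The promoters of 5 genes are shown because they stand for the patterns found: Hmgcs1, Cyp51 and Insig1, whose levels were lowest in G2/M, Srebf2, which encodes a factor that acts on such promoters and peaked in S, and Elovl6, highest in G2/M. Each is the 300-base RefSeq window of GRCm38.p6, from 250 bases before to 50 bases after the annotated start, written 5′ to 3′ on the gene's strand. Capitals mark matches to 4 motifs on either strand: the core of the sterol regulatory element (TCACNCCA), the CCAAT box bound by NF-Y (CCAAT), the GC box bound by Sp1 (GGGCGG) and the E-box (CACGTG).
Hmgcs1, chr13:119690101-119690400, plus strand: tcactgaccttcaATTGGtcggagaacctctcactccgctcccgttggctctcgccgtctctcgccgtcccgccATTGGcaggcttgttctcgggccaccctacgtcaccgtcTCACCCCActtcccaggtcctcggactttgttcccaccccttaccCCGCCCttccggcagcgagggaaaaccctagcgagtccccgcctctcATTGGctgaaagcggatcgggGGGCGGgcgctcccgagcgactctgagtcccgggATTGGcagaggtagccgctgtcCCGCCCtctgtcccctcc
Cyp51, chr5:4104648-4104947, minus strand: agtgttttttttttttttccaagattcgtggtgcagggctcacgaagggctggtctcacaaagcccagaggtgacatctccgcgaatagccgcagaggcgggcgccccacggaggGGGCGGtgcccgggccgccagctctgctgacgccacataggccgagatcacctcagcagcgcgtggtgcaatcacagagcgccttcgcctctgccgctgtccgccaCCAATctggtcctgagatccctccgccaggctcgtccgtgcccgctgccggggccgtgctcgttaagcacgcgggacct
Insig1, chr5:28071162-28071461, plus strand: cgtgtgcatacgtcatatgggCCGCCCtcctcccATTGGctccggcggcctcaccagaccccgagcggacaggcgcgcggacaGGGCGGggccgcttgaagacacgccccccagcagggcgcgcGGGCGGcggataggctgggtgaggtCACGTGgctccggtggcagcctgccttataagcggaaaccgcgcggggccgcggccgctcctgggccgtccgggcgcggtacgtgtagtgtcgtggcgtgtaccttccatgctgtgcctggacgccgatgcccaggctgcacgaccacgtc
Srebf2, chr15:82147019-82147318, plus strand: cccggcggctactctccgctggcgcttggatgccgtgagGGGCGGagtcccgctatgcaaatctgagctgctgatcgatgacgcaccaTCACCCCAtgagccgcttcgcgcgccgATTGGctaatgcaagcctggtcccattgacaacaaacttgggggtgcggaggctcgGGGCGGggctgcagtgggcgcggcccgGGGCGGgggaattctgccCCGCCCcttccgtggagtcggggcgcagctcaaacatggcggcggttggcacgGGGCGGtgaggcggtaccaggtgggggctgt
Elovl6, chr3:129532136-129532435, plus strand: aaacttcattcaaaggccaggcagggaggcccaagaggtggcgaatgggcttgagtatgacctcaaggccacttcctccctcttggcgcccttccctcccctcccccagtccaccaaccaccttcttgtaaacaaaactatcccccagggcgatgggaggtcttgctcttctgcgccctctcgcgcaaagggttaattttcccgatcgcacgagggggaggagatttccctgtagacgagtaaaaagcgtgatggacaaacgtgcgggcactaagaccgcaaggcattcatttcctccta

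RefSeq windows were given for 24 of the 30 genes, 5 of them with several starts, and a gene was counted as holding a motif when any of its windows did. The CCAAT box was in 20 of the 24 (83.3%), against 42.9% of the 6610 genes with a window that reached a mean of 10 CPM here. The 4 without it were Acaca, Acat2, Elovl6 and Scap. The GC box was also in 20 of 24, against 74.5% of those 6610 genes. The sterol element core was in 3 of 24, Hmgcs1, Msmo1 and Srebf2 (12.5%), against 4.15%, and the E-box in 5 of 24 (20.8%), against 12.7%. The windows printed for Hmgcs1 and Srebf2 each hold the 8 letters of the core, and the Elovl6 window holds none of the 4 motifs. A match is a description of letters and does not show binding. Only exact matches inside these windows were searched, so a gene without a match may still hold a variant of the element.

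Of the 30 genes, 28 reached a mean of 10 CPM over the 3 libraries and enter the counts below, as do 8335 genes in all. The exceptions were Mvd, which makes isopentenyl diphosphate, and Tm7sf2, a sterol reductase. Per length of exon the 28 genes ranged from a mean FPKM, a level per exon length, of 2.82 for Scap to 242.2 for Scd2. The desaturase Scd2, the synthase Hmgcs1 (199.4) and the desaturase Scd1 (94.9) were the most abundant. Scap, Srebf1 (3.69) and Fdps (4.67) were the least abundant of the 28. Over the cycle the highest phase of a gene exceeded its lowest by a median of 1.42-fold, from 1.04-fold for Scd1 to 2.86-fold for Scap. The same median over all genes is not given here.

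**Figure D1:**
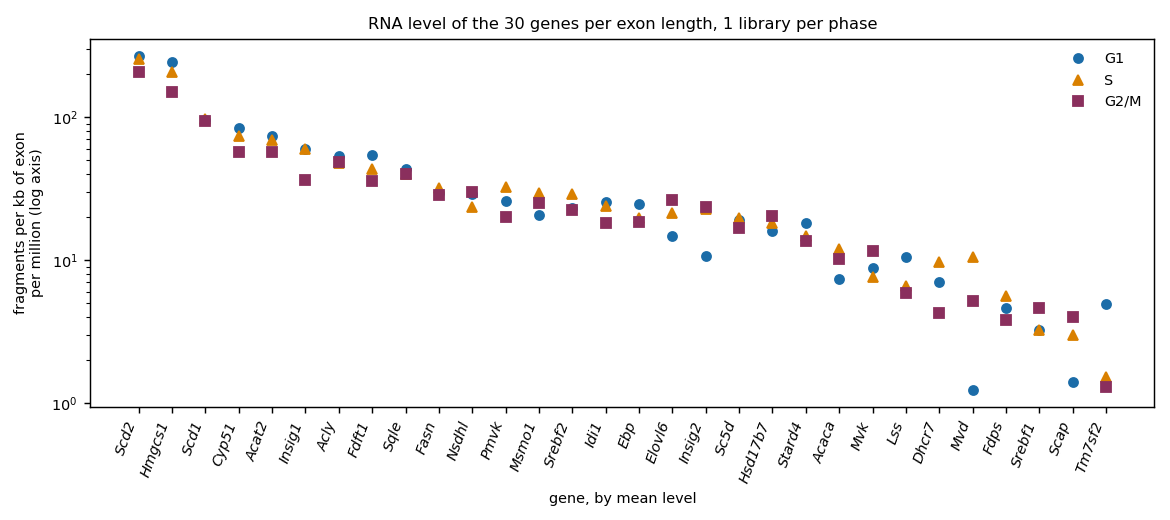
RNA level of all 30 genes in FPKM (log axis), 1 point per phase, ordered by mean level. Scd2, Hmgcs1 and Scd1 stand at the top, and the 3 phases lie close together for most genes, with wide gaps for Mvd, Scap and Tm7sf2 at the low end.

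G2/M was the low phase for most of the list. Of the 28 genes 17 were lowest in G2/M, against 33.2% of all 8335 genes. For 13 of the 17 the G2/M interval lay below those of both other phases. These intervals cover counting error only, and no share over all genes stands beside that count. Among the 16 counted enzymes of the list from acetyl-CoA to cholesterol, 11 were lowest in G2/M, 3 in S and 2 in G1. S and G1 were the lowest phases of 30.6% and 36.2% of all genes. In the comparison of G2/M with S, 19 of 28 genes were lower in G2/M, against 49.9% of all genes, with a median log2 ratio of -0.20 where the median of all genes was 0.00. Against G1, 19 of 28 were again lower in G2/M, against 50.1% of all genes, with a median of -0.16. The comparisons share libraries and are not separate results. Between S and G1 the list was even, 15 of 28 lower in S against 50.0% of all genes, with a median of -0.01.

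Counts of larger differences are given beside the share over all genes. The 2 genes under the level minimum are left out of these counts. They had the widest ranges of the list, 8.45-fold for Mvd and 3.84-fold for Tm7sf2. At 2-fold or more, S exceeded G1 for 2 of 28 genes, Scap and Insig2 (7.52% of all genes) and none was lower (6.75%). Between G2/M and S none was higher (5.47%) and 1 was lower (5.52%). Between G2/M and G1, 2 were higher (8.34%) and none was lower (8.09%). At 1.5-fold or more, 5 of 28 were lower in G2/M than in G1 against 17.9% of all genes, and 3 of 28 were lower than in S against 14.3%. Shares of 2-fold differences depended strongly on level. Between S and G1, 23.3% of 4096 genes at a mean of 10 to 50 CPM differed 2-fold or more, 6.58% of 3178 genes at 50 to 200 CPM and 2.45% of 1061 genes above. In these ranges, chosen after the values were seen, the middle 90% of genes give a scale for single members. None of the 28 lay outside it between G2/M and S, Insig2 alone lay above it between S and G1, and between G2/M and G1 Insig2 lay above it and Hmgcs1 below it.

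**Figure D2:**
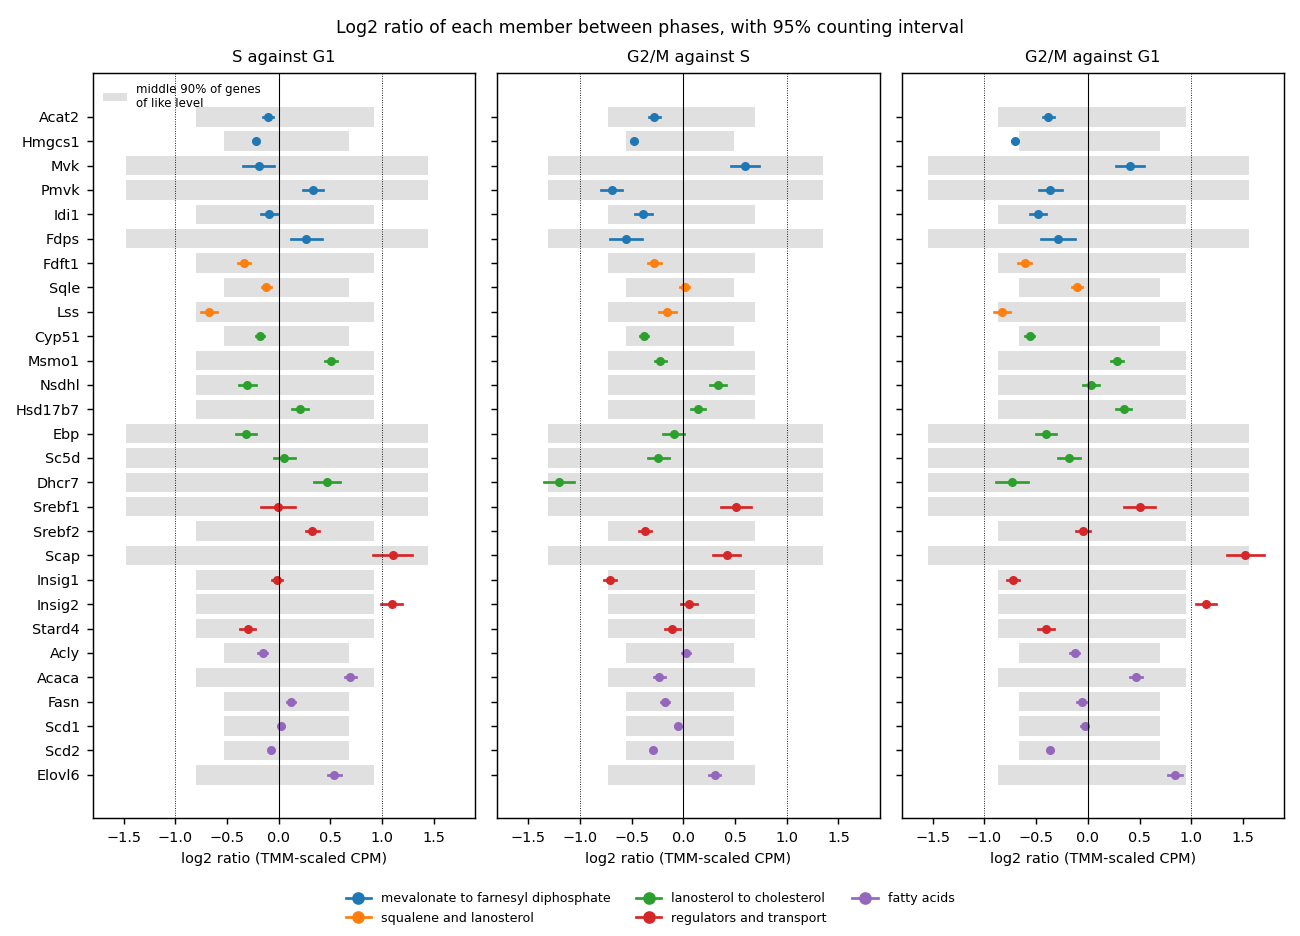
Log2 ratio of TMM-scaled CPM for the 28 genes in each comparison, coloured by role, with the exact 95% counting interval as a line, the middle 90% of genes of like level as a grey bar and 2-fold as dotted lines. Most points in the G2/M panels lie left of 0 yet inside the grey bars; Insig2 lies outside them in both comparisons with G1.

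The mevalonate branch makes farnesyl diphosphate. Its 7 genes on the list, which are not all of its enzymes, summed to 1149 CPM in G1, 1046 in S, then 779.2 in G2/M. This is a change of -32.2% from G1, with the 2 columns of G2/M at 783.0 and 775.4. Hmgcs1 gave most of this sum, and the other 6 genes changed by -18.6% between G1 and G2/M. The median log2 ratio of G2/M to G1 was -0.37 over the 6 mevalonate genes that reached the minimum and -0.61 over the 3 genes of squalene and lanosterol. Of these 6 mevalonate genes 5 were lowest in G2/M. Hmgcs1, the synthase that condenses acetoacetyl-CoA to HMG-CoA, on chr13:119690462-119708086 in GRCm38, stood at 776.0 and 789.7 CPM in the G1 columns, 671.0 and 669.4 in S, and 483.2 and 478.6 in G2/M. It stepped down from G1 to S to G2/M, and the counting intervals of the 3 phases did not overlap. Between S and G2/M the level of Hmgcs1 differed 1.39-fold (log2 -0.48, interval -0.51 to -0.45). It was 1.63-fold lower in G2/M than in G1, at -0.70 (interval -0.73 to -0.68).

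Acat2, the cytosolic thiolase that makes acetoacetyl-CoA, and Idi1, the isomerase of isopentenyl diphosphate, had the same order. Acat2 stood at 188.0 CPM in G1, 175.1 in S, then 144.2 in G2/M, and Idi1 at 88.9, 83.2 and 63.7. For Acat2 the small difference between S and G1 (log2 -0.10) changed sign with the exon length trend removed. Pmvk, the phosphomevalonate kinase, peaked in S. Its columns read 44.6 and 43.9 CPM in G1, 56.1 and 55.1 in S, and 35.4 and 33.4 in G2/M, which is 1.62-fold lower in G2/M than in S (log2 -0.69, interval -0.80 to -0.59). Fdps, farnesyl diphosphate synthase, stood at 19.5, 23.5 and 16.0 CPM in G1, S and G2/M. Of its exon bases 26.7% are shared with the gene model Gm43738, where the counting could not assign fragments to either.

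Mvk, mevalonate kinase, went the other way. It stood at 24.6 and 22.3 CPM in G1, 20.75 and 20.2 in S, and 30.03 and 32.0 in G2/M, with G2/M 1.51-fold above S (log2 0.60, interval 0.46 to 0.73). The counting interval of G2/M lay above those of G1 and S. Mvd, under the level minimum, had 70 fragments in G1, 661 in S, then 330 in G2/M.

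Squalene and lanosterol are made by Fdft1, Sqle and Lss, and all 3 were highest in G1. Lss, the cyclase that closes the sterol rings, stood at 114.6 and 112.5 CPM in G1, 72.1 and 70.15 in S, and 64.4 and 63.5 in G2/M. Its main step was therefore between G1 and S (log2 -0.67, interval -0.75 to -0.60), and G2/M was 1.78-fold below G1. Fdft1, squalene synthase, stood at 155.6 CPM in G1, 123.6 in S, then 101.8 in G2/M, 1.53-fold lower in G2/M than in G1 (log2 -0.61, interval -0.67 to -0.55). Of its exon bases 26.8% are shared with the cathepsin gene Ctsb. Sqle, the epoxidase that oxidises squalene, showed little difference, at 240.1, 221.2 and 223.2 CPM. Between G2/M and S its log2 ratio was 0.01, with an interval of -0.03 to 0.06.

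The 8 listed enzymes from lanosterol to cholesterol did not move as a block. Dhcr7, the reductase of the final step in one of the 2 branches, had the only 2-fold difference between G2/M and S. It stood at 26.7 and 26.6 CPM in G1, 36.8 and 36.9 in S, and 15.9 and 16.2 in G2/M. S was the high phase and G2/M the low one, a 2.30-fold difference (log2 -1.20, interval -1.34 to -1.06), at a level where 19.9% of genes differed 2-fold or more between these libraries. Cyp51, the lanosterol demethylase and the most abundant of the 8, stood at 373.1 and 367.7 CPM in G1, 320.2 and 332.2 in S, and 250.7 and 250.4 in G2/M, in the same order as Hmgcs1. It was 1.48-fold lower in G2/M than in G1 (log2 -0.56, interval -0.60 to -0.52).

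Msmo1, which removes methyl groups at C-4 of the sterol, was lowest in G1, at 127.6 CPM against 181.2 in S and 155.2 in G2/M. Nsdhl, its partner dehydrogenase, dipped in S, at 83.3, 67.5 and 85.1 CPM. Hsd17b7, the ketoreductase of the same complex, was lowest in G1, at 80.9, 93.3 and 103.1 CPM. Ebp, the sterol isomerase, stood at 56.6, 45.6 and 42.7 CPM and Sc5d, the desaturase that follows it, at 44.5, 46.2 and 39.2. Tm7sf2, under the level minimum, had 556 fragments in G1, 192 in S, then 164 in G2/M.

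**Figure D3:**
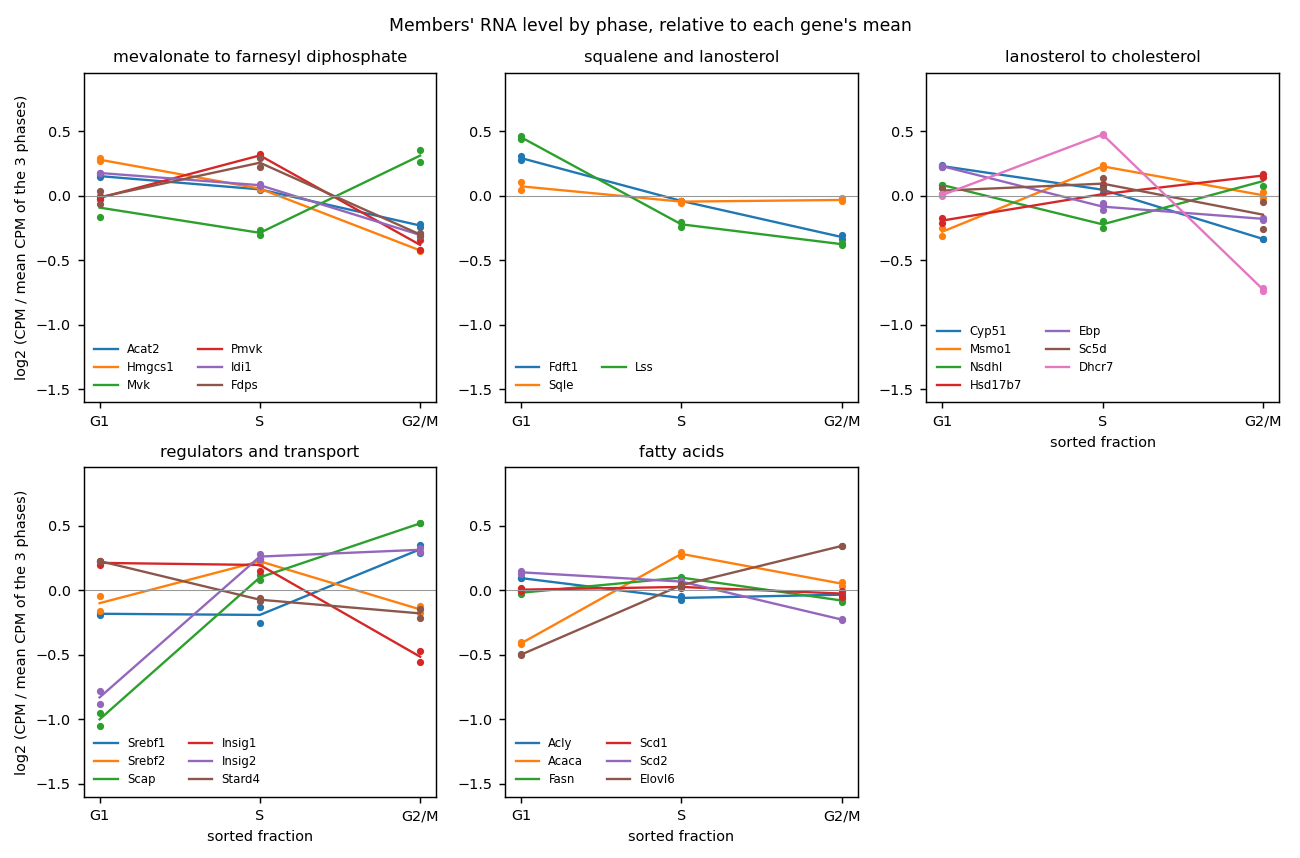
Level of each of the 28 genes in G1, S and G2/M as log2 of CPM over the gene's mean of the 3 phases, by role; lines join the summed libraries and dots are the 2 columns of each. In the mevalonate panel 5 of 6 lines end low in G2/M; among the regulators Insig1 ends low while Insig2 and Scap start low in G1.

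The sterol-sensing genes diverged. Insig1, the INSIG that is itself a target of SREBP, stood at 187.5 and 184.0 CPM in G1, 189.2 and 178.1 in S, and 108.8 and 115.6 in G2/M. The counting intervals of G1 and S overlapped, and that of G2/M lay lower. G2/M was 1.64-fold below S (log2 -0.71, interval -0.77 to -0.65). The ratio lay just inside the middle 90% of genes of its level range, which ended at -0.73. Insig2, the related protein whose main RNA does not depend on SREBP, stood at 35.7 and 38.1 CPM in G1, 79.8 and 77.5 in S, and 80.7 and 82.3 in G2/M. Its low phase was G1 alone, 2.13-fold below S (log2 1.09, interval 0.99 to 1.19) and 2.21-fold below G2/M (log2 1.14, interval 1.05 to 1.24). Insig1 therefore held 5.03 times the CPM of Insig2 in G1 and 1.38 times in G2/M. Per exon length the levels of Insig1 and Insig2 were 60.1 against 10.6 FPKM in G1 and 36.3 against 23.5 in G2/M.

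Scap, the escort protein, had the widest range of the 28 genes at a low level. It stood at 10.1 and 10.9 CPM in G1, 22.2 and 22.7 in S, and 30.03 and 30.02 in G2/M. It was 2.14-fold higher in S than in G1 (log2 1.10, interval 0.91 to 1.29) and 2.86-fold higher in G2/M than in G1. With the trend of ratios over exon length removed the S to G1 value was 0.95, under 2-fold. Of its exon bases 13.2% are shared with the gene model 5830462I19Rik.

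The 2 SREBP genes differed in level and order. Srebf2, which encodes the SREBP most active on cholesterol genes, stood at 120.6 and 111.0 CPM in G1, 144.0 and 145.9 in S, and 110.1 and 113.8 in G2/M. The counting intervals of G1 and G2/M overlapped, below that of S. S exceeded G2/M by 1.29-fold (log2 -0.37, interval -0.43 to -0.31). Srebf1, whose products act more on fatty acid genes, stood at 18.2 and 18.4 CPM in G1, 18.95 and 17.5 in S, and 26.5 and 25.3 in G2/M, with G2/M 1.42-fold above S (log2 0.51, interval 0.36 to 0.66). Stard4, a carrier of sterol between membranes, stood at 100.8, 81.9 and 76.1 CPM in G1, S and G2/M.

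The fatty acid genes had the highest summed CPM of the 5 roles. The 6 genes summed to 2704 CPM in G1, 2757 in S, then 2456 in G2/M, of which Scd2 alone gave 1453, 1382 and 1127. Scd2, a stearoyl-CoA desaturase, stood at 1441 and 1464 CPM in G1, 1384 and 1379 in S, and 1125 and 1130 in G2/M, 1.23-fold lower in G2/M than in S (log2 -0.29, interval -0.31 to -0.28). Its neighbour and relative Scd1 hardly differed, at 459.7, 466.4 and 450.1 CPM, with a log2 ratio of G2/M to G1 of -0.03 (interval -0.06 to 0.00). The tandem relatives Scd3 and Scd4 reached at most 1.82 CPM in any library. Fasn, the fatty acid synthase, stood at 291.4, 316.1 and 279.5 CPM and Acly, which makes cytosolic acetyl-CoA from citrate, at 281.0, 252.6 and 257.0.

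Acaca and Elovl6 were low in G1. Acaca, the acetyl-CoA carboxylase that commits carbon to fatty acids, stood at 126.3 and 124.9 CPM in G1, 201.3 and 205.0 in S, and 171.4 and 174.9 in G2/M, 1.62-fold higher in S than in G1 (log2 0.69, interval 0.64 to 0.75). It has the longest exons of the list, 17074 bases, and with the trend over exon length removed the log2 value was 0.33. Elovl6, the elongase that turns palmitate into stearate, stood at 93.8 and 94.5 CPM in G1, 138.0 and 135.5 in S, and 169.2 and 168.5 in G2/M. It stepped up through the phases, 1.79-fold from G1 to G2/M (log2 0.84, interval 0.78 to 0.91).

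**Figure D4:**
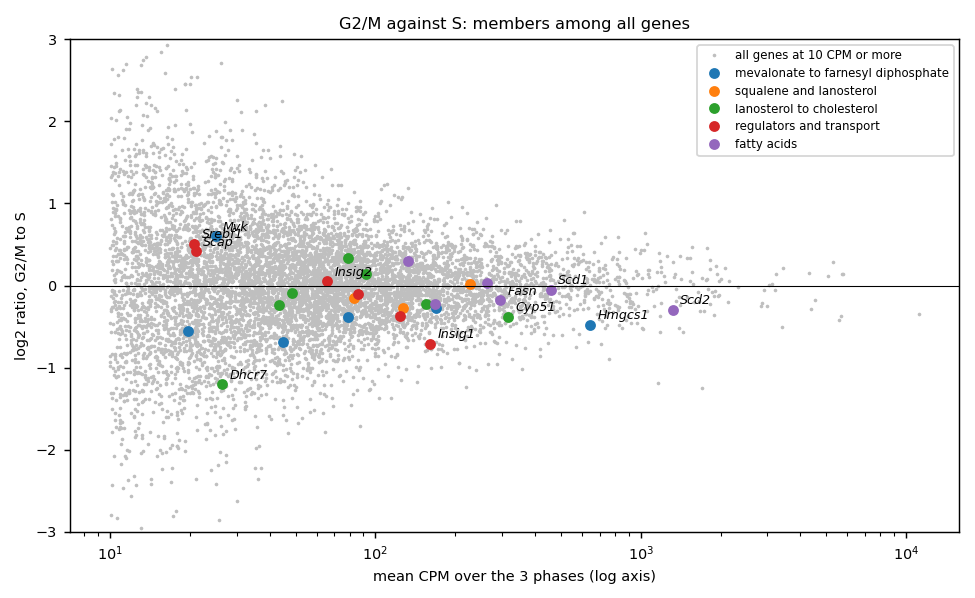
Log2 ratio of G2/M to S against mean CPM (log axis) for 8335 genes in grey, with the 28 genes coloured by role; 30 genes fall outside the vertical axis. The grey cloud narrows with level, and most coloured points lie below 0. Hmgcs1 and Insig1 lie low in the cloud, with 8.01% and 5.73% of the genes of their level range below them.

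Genes that surround the pathway were described from 4 further lists. Of 13 other genes of sterol synthesis, uptake and SREBP processing, 12 reached the minimum. In G2/M against S, 7 were higher and 5 lower, around a median of 0.03. Lbr, a sterol reductase that also anchors chromatin to the nuclear envelope, stood at 203.2, 316.0 and 189.2 CPM, and its 1.67-fold lower level in G2/M than S lay below the middle 90% of its level range. Tmem97, of the same list, went the other way. Its log2 ratio of G2/M to S was 0.78, above the middle 90% of its level range, which ended at 0.69. Of the Golgi proteases that release SREBP, Mbtps1 was even at 124.0, 126.1 and 123.3 CPM and Mbtps2 stood at 64.2, 92.65 and 121.0, with 28.4% of its exon bases shared with Yy2.

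Of 9 genes of liver X receptor response, esterification and efflux only Soat1, which stores cholesterol as ester, reached the minimum, at 229.4, 302.7 and 206.3 CPM. Abca1 and Abcg1, the exporters of cholesterol, had 0 fragments in all 3 libraries, where a floor of 3 fragments per library stands at 0.0936 CPM in G1, 0.0837 in S, then 0.0827 in G2/M. Of 18 other genes of fatty acid and lipid synthesis 13 reached the minimum, and their median log2 ratio of G2/M to S was 0.02. Hacd2, a dehydratase of chain elongation, was 4.19-fold lower in G2/M than in S, at 10.9 against 45.7 CPM. Slc25a1, which exports citrate from mitochondria, was 2.76-fold lower in S than in G1, at 23.2 against 64.0 CPM, and Gpam, which starts glycerolipid synthesis, 2.60-fold higher, at 25.1 against 9.67. Fads1 stood at 155.9, 141.4 and 143.9 CPM and Fads2, its partner desaturase, at 59.8, 107.0 and 95.04. Acss2, which makes acetyl-CoA from acetate, had 165 fragments in G1, 290 in S, then 4 in G2/M, below the minimum.

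The isoprenoid branches, which use farnesyl diphosphate for other products, had 9 of 9 genes at the minimum and a median of 0.18 between G2/M and S, with 6 higher and 3 lower. Pdss2, of coenzyme Q side chain synthesis, stood at 26.7, 5.33 and 14.1 CPM and Dhdds, of dolichol synthesis, at 16.8, 53.2 and 33.2. Fnta, the shared alpha subunit of the protein prenyltransferases, stood at 168.7, 97.6 and 79.6 CPM, 2.12-fold lower in G2/M than in G1. Pggt1b, a beta subunit that pairs with it, stood at 29.3, 23.7 and 54.2 CPM, with G2/M 2.29-fold above S. The median between G2/M and S was thus -0.20 over the 28 genes and 0.03, 0.02 and 0.18 over the 3 further lists with several measured genes, and the difference between lists was not tested.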

How the data were processed

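RNA-seq counts of 6 samples were used. Per the file headers, the deposited counts are fragments per gene from paired reads, made with featureCounts 1.5.0-p3 over exons of an Ensembl GRCm38 annotation. Its command line sets nothing for strand, for reads with several matches or for gene overlaps. Of the 30 genes 9 share exon bases with another gene, 4 of them over 10%. HISAT2 2.1.0 and SAMtools 1.6 appear, per the submitters' processing notes, without a stated use. Symbols were matched for 45143 of 46078 genes.

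The 2 columns of a phase were summed where the chi-square per degree of freedom was under 1.5, as in all 3 phases; the titles call them replicates, and nothing in the labels says that they came from separate cultures. Libraries were scaled with TMM factors from edgeR 4.0.16 (limma 3.58.1, R 4.3.3). DESeq2 1.42.0 gave alternative size factors. No p-values were computed. Ratios have exact binomial intervals and levels exact Poisson intervals in the tables; for a count of 0 the text gives the floor of 3 fragments. A count under 3 was set to 3 in a log2 ratio. Genes entered at a mean of 10 CPM over the 3 libraries. Exon length, which scales levels between genes, is the deposited table's. The calculation was tested on simulated data.

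All 30 genes are described, with full statistics at 1.5-fold or more and for related pairs. Other genes are named at 2-fold or more, at most 4 per list, with Mbtps1, Mbtps2, Abca1, Soat1, Fads1, Fads2, Acss2 and Slc25a1. Lbr, Tmem97 and Abcg1 fall outside that rule and were chosen after their values were seen. Some genes of that rule are not reported here. The members, lists and rules were chosen with earlier results of these data known.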

Additional observations from a re-analysis of the deposited data

How the results depend on the processing

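Over the 7 of 8 other settings that give a lowest phase, 17 of 28 genes lowest in G2/M varied between 12 of 20 and 18 of 30, and each gave a share above 0.5 of the genes measured. Counts of 2-fold differences are small and followed the filter. The share over all genes depends on level too, and the counts that follow are not set beside it. With 10 CPM in 1 of the 2 libraries compared they were 4 for S against G1 and 2 for G2/M against S. With a mean of 50 CPM they were 1 for S against G1, 0 for G2/M against S and 1 for G2/M against G1, since Scap and Dhcr7 lie below that level. With 1 fragment in each library they were 4, 2 and 4. With the exon length trend removed 1 was left for S against G1, as Scap passed under 2-fold. Leaving out either column of each pair gave 2 to 3 for S against G1, 1 to 1 for G2/M against S and 2 to 3 for G2/M against G1.

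The median for S against G1 was -0.083 at a mean of 50 CPM and -0.06 to 0.02 with a column left out. For G2/M against S it was -0.22 with 10 CPM in 1 library, -0.23 with 1 fragment in each, -0.15 with the length trend removed and -0.20 to -0.17 with a column left out. For G2/M against G1 it was -0.13 by library size alone, -0.16 with DESeq2 size factors, -0.19 with 10 CPM in 1 library, -0.12 at a mean of 50 CPM, -0.18 with the length trend removed and -0.14 with either column left out. The cause of these shifts was not tested. No paired analysis was possible because the results come from no test; leaving out one column number gives the ratio within the other number. Of the genes' single log2 ratios, removing the length trend moved 35 of 84 outside their counting intervals, by up to 0.36, and changed the sign of 5, all at a size of at most 0.12: Acat2, Insig1, Fasn and Scd1 between S and G1 and Insig2 between G2/M and S. Counting intervals were wider at low depth, from 0.91 to 1.29 for Scap and from -0.09 to -0.05 for Scd2 between S and G1.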
